A study of Mus musculus with 7 samples.

Results

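Among 86767 pairs of restriction fragments assayed by chromosome conformation capture carbon copy (5C), 464 were above their expected contact frequency in both neural progenitor cell (NPC) libraries and below it in both embryonic stem (ES) cell libraries. These 464 pairs were chosen by the measured reads and by the expected reads that the authors deposited for each pair and library. A pair had to have at least 10 reads and at least 2 times its predicted reads in NPC replicates 1 and 2. It also had to have under 1 times its predicted reads in ES replicates 1 and 2. The ratio of reads to predicted reads is called the ratio below. Since the rule used all 4 libraries, the contrast between the cell types in these pairs is a description and was given no test.

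The ES cells were V6.5, a male mouse line of 129SvJae x C57BL/6 background, grown on feeders and then on gelatin with LIF. The NPCs were made from V6.5 cells through embryoid bodies without LIF, selection in serum-free ITSFn medium and growth with Fgf2. Each cell type had 2 libraries, cut with HindIII, and nothing in the labels says that they came from separate cultures. A gene desert served as negative control beside regions around Klf4, Nanog, Nestin, Oct4, Sox2 and the neighbouring Olig1 and Olig2 genes, called Olig1-Olig2 here. All groups came from 1 cell line, and each library pooled many cells, so a contact in all cells at a low frequency and a contact in few cells at a high one cannot be told apart. The files hold no expression values, so the cell types were not checked against marker genes.

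In 5C, a read counts a ligation between a forward and a reverse primer placed on different fragments, and contacts fall off steeply with the distance between them. Contacts above that decay are known where CTCF and the cohesin ring hold chromatin loops, and where enhancers meet promoters during lineage commitment. Oct4, Nanog, Sox2 and Klf4 encode transcription factors of pluripotent cells, and Sox2 also works in neural progenitors. Nestin encodes an intermediate filament protein of neural progenitors, and Olig1 and Olig2 encode transcription factors of the oligodendrocyte and motor neuron lineages. The table gives fragment numbers and distances but no chromosome coordinates, so the fragments below could not be placed on genes, on sequence or on the CTCF and Smc1 peaks. Positions are in kb from the lowest assayed fragment of a region.

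ES replicates 1 and 2 held 10742380 and 8236666 reads, and NPC replicates 1 and 2 held 15899829 and 42673906. The 3 deepest pairs of a library took 19.7% to 57.1% of its reads. Ratios were spread more widely in NPCs. Over pairs with at least 10 predicted reads, the standard deviation of the log2 ratio was 1.06 and 1.00 in ES and 1.75 and 2.54 in NPCs. Of such pairs, 7.91% and 6.36% reached a ratio of 2 in ES replicates 1 and 2, against 14.6% and 19.5% in NPC replicates 1 and 2. The NPC libraries therefore had more pairs past the threshold before any comparison, and the part of this spread in the list was not tested. The mirror rule, above expected only in ES cells, gave 111 pairs. All libraries were then thinned to equal reads outside the 3 pairs with most reads over all libraries, called equal depth below. At equal depth the rule gave 285 pairs and its mirror 105.

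The 464 pairs were 0.535% of all pairs and 1.26% of the 36791 pairs with at least 10 reads in both NPC libraries, called eligible pairs below. Their median ratio was 0.72 and 0.64 in ES replicates 1 and 2 and 2.84 and 3.01 in NPC replicates 1 and 2. Median reads were 9 and 6 in ES and 72.5 and 142.5 in NPCs. Most lay close to the threshold. In 321 pairs the lower of the NPC ratios was under 3, in 101 it was from 3 to under 5, in 35 from 5 to under 10, and in 7 it was 10 or more. The NPC ratios of a pair were within 2-fold of each other in 407 of the 464.

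At the edge of the list, Oct4 FOR360-REV150 had a lower NPC ratio of 2.001 and Sox2 FOR276-REV158, just outside, one of 1.999. Klf4 FOR267-REV087 entered with 10 reads in NPC replicate 1, while Klf4 FOR008-REV189 stayed out with 9. Nanog FOR062-REV157 entered with a higher ES ratio of 0.9998, and Sox2 FOR314-REV149 stayed out at 1.001. A further 628 pairs met all conditions except that their lower NPC ratio was from 1.5 to under 2. Another 980 missed only because their higher ES ratio was from 1 to under 1.5.

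How firmly a low ES ratio was measured depended on the reads expected there. Predicted reads were at least 10 in both ES libraries for 221 of the 464 pairs and at least 100 for 49. In 29 pairs both ES libraries had 0 reads, and in 47 pairs 1 of them had. With the ES libraries pooled, the upper 95% counting bound of the ES ratio was under 2 in 436 pairs and under 1 in 170. It is the upper end of a two-sided exact Poisson interval, or 3 reads, a one-sided limit, where the count was 0. The one-sided limit is the lower of these, so the numbers of pairs mix both kinds of bound. Of the 29 pairs with 0 reads in ES, 17 had a bound under 2, and the bounds ran from 0.401 to 7.24. These bounds cover counting error only, because PCR copies are not independent molecules.

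All 7 captured regions held members, and the counting intervals of their rates among eligible pairs overlapped. Oct4 held 141 of its 9484 eligible pairs, or 1.49% (95% Wilson interval 1.26 to 1.75). Klf4 held 76 of 6012 (1.26%, 1.01 to 1.58) and Olig1-Olig2 93 of 7723 (1.20%, 0.984 to 1.47). Nestin held 47 of 3907 (1.20%, 0.906 to 1.60), Sox2 77 of 6929 (1.11%, 0.890 to 1.39) and Nanog 25 of 2282 (1.10%, 0.743 to 1.61). The gene desert, the negative control, held 5 of 454 (1.10%, 0.471 to 2.55). The control lay within the range of the regions chosen for their genes. Pairs that share a fragment are not independent, so the intervals are too narrow. The order depended on the expected value and the denominator. Among pairs with at least 10 predicted reads, Sox2 stood at 0.400% (0.267 to 0.600), Oct4 at 0.749% (0.592 to 0.946) and Olig1-Olig2 at 0.770% (0.590 to 1.00). With an expected value refitted from distance and fragment medians, Oct4 held 246 pairs (2.59% of eligible pairs), Nanog 51 (2.23%), Sox2 81 (1.17%) and the gene desert 2 (0.441%).

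The order of the regions changed once distance was taken into account. The rate of each distance class was taken over eligible pairs of all regions, each region's own members included. Only Oct4 spanned more than 1280 kb, so in the longest class its expected count equals its own. If each distance class had the same rate everywhere, Oct4 would hold 159 pairs, against the 141 seen, and Sox2 85.4 against 77. For Olig1-Olig2 the figures were 91.4 against 93, for Nanog 23.3 against 25, for Nestin 39.7 against 47 and for Klf4 61.9 against 76. Observed over distance-matched counts thus ran from 0.887 in Oct4 to 1.23 in Klf4, with no interval and no test. In the gene desert, whose fragments span only 196 kb, it was 1.52, on 5 pairs.

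**Figure D1:**
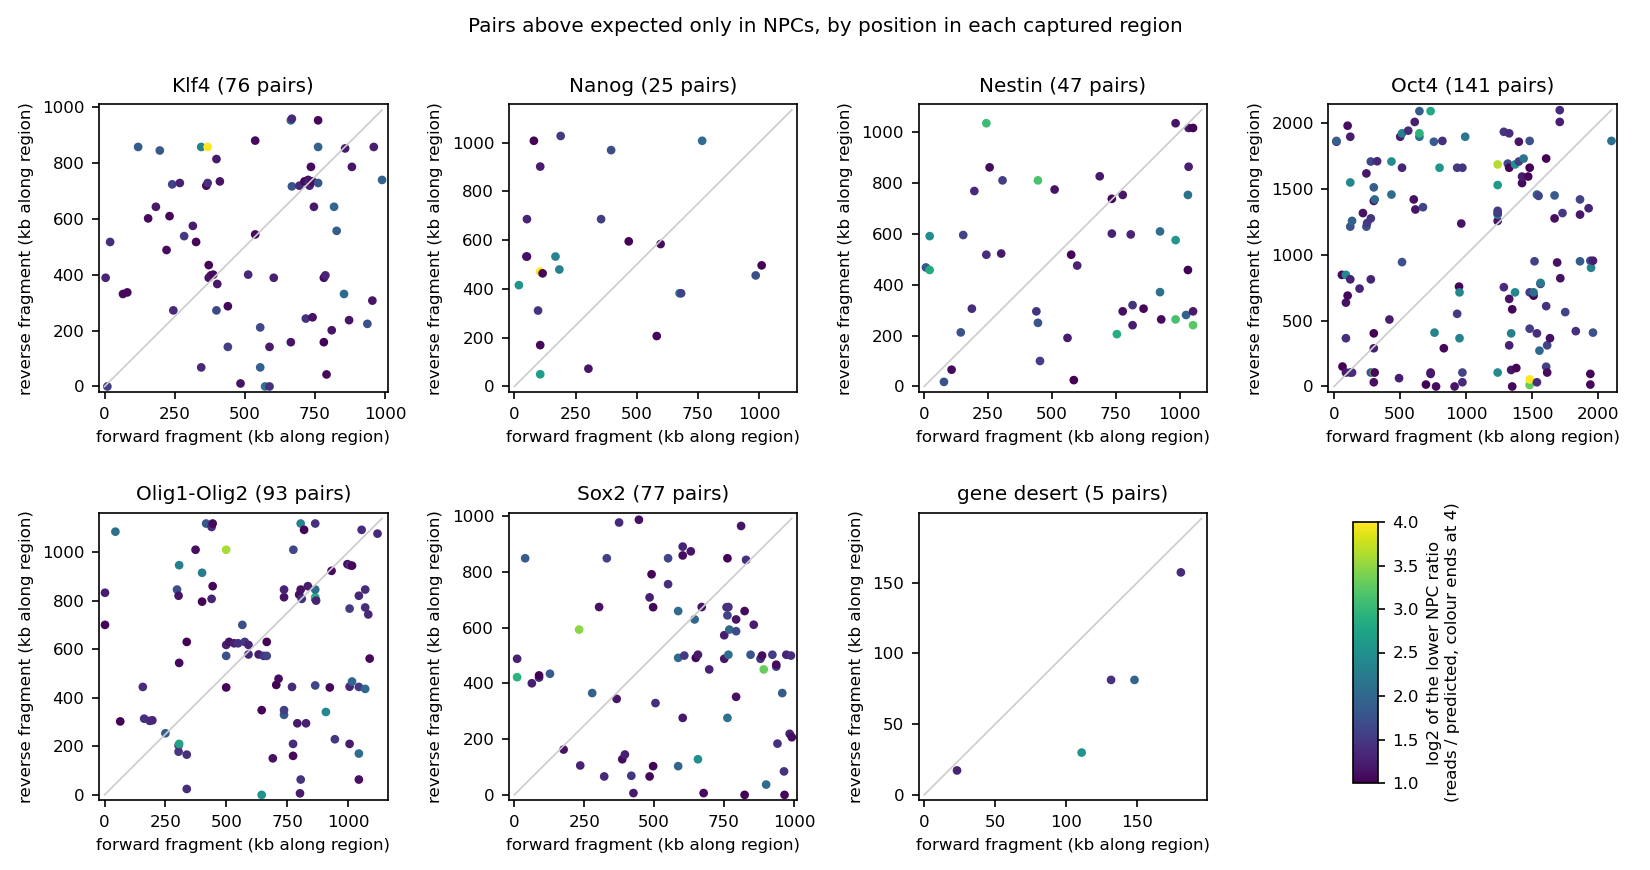
Each point is 1 of the 464 pairs, placed by its forward fragment (x) and reverse fragment (y) in kb along its captured region, with colour for the log2 of the lower NPC ratio and a grey line where both positions are equal. Points are scattered over every region, with short rows or columns at single fragments, such as the reverse fragment near 503 kb in Sox2.

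Over all pairs of the table, membership varied little with distance from 20 to 1280 kb. The pairs spanned 2.05 to 1924 kb, with a median of 377 kb, against 350 kb for all pairs and 183 kb for eligible pairs. Of all pairs, 0.433% to 0.548% met the rule in each class from 20 to 1280 kb. The share was 0.658% (95% Wilson interval 0.377 to 1.15) under 10 kb and 1.14% (0.715 to 1.82) from 10 to 20 kb. From 1280 to 2560 kb it was 0.849% (0.580 to 1.24).

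Among eligible pairs the share rose with distance, from 0.606% at 20 to 40 kb to 0.959% at 160 to 320 kb, 1.83% at 320 to 640 kb, 3.08% at 640 to 1280 kb and 5.38% (3.70 to 7.77) beyond. Eligible pairs passed a minimum of reads in NPCs, the type in which members had to be high, so this rise does not stand for the table as a whole. Over all pairs the median predicted reads in NPC replicate 1 fell from 50.2 at 40 to 80 kb to 3.74 at 640 to 1280 kb, below the 10 reads needed.

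Among the 32963 pairs with at least 10 predicted reads in all 4 libraries, where the read minimum does not bind, 211 met the rule, or 0.640%. The rate with distance was flatter there. It was 0.419% to 0.535% between 20 and 320 kb, then 0.824% (0.632 to 1.07), 1.18% (0.815 to 1.72) and 1.98% (0.847 to 4.54) in the 3 longest classes. The class from 10 to 20 kb stood apart at 1.17% (0.723 to 1.90), with 16 pairs. In this set the median distance of the pairs was 237 kb.

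**Figure D2:**
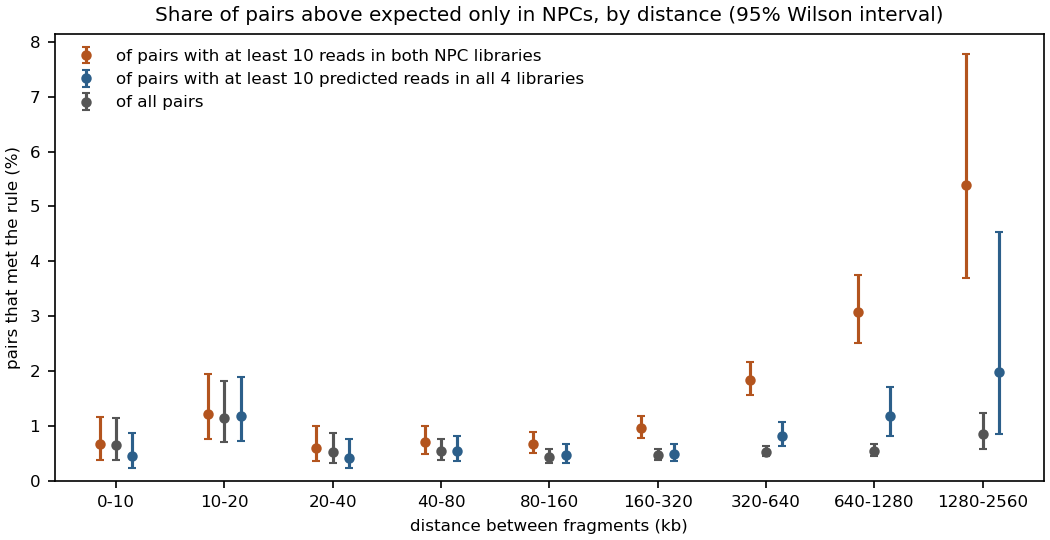
Share of pairs that met the rule (y, percent) by distance between the fragments (x, kb), with 95% Wilson intervals, for 3 denominators. The share of eligible pairs climbs to 5.38% in the last class, while the share of all pairs there is 0.849% and that of pairs with at least 10 predicted reads 1.98%.

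Beside eligible pairs of the same region and distance class, weighted to the same mix, the list had fewer predicted reads. Median predicted reads of the list were 13.9 and 9.54 in ES and 21.3 and 45.9 in NPCs. Those of the 35617 distance-matched eligible pairs were 27.1 and 18.3 in ES and 37.8 and 70.0 in NPCs. Low predicted counts thus went with membership at equal distance. Predicted reads are the denominator of the ratio that the rule used, so low values in NPCs are favoured by the choice itself. The part of counting noise in this was not tested.

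The pairs with the highest NPC ratios show what the list contains. Nanog FOR039-REV140, 366 kb apart, had 90 and 27 ES reads and 13909 and 31515 NPC reads. Its predicted reads were 131 and 69.0 in ES and 638 and 1312 in NPCs, which gave ratios of 0.69, 0.39, 21.8 and 24.0. Its counts leave little counting error, with an interval of 0.485 to 0.702 for the pooled ES ratio. The 8 pairs around it, made with the nearest assayed fragments on each side, had median ratios of 1.40 and 0.85 in NPCs and at most 456 and 628 reads there.

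Klf4 FOR127-REV310, 489 kb apart, had 24 and 9 ES reads and 10514 and 27660 NPC reads, with ratios of 0.86, 0.74, 35.6 and 17.1. Klf4 FOR119-REV310, 512 kb apart on the same reverse fragment, had 29 and 8 against 548 and 2753 reads, with ratios of 0.96 and 0.58 against 5.06 and 7.43. Around FOR127-REV310 the median NPC ratios were 0.36 and 0.20, but the highest were 53.8 and 20.8, against 2.04 in each ES library. In both pairs the NPC libraries were far above the ES libraries, and the order of the NPC replicates differed between the pairs.

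In the Olig1-Olig2 region, FOR145-REV323, 510 kb apart, had 29 and 6 ES reads and 3884 and 9458 NPC reads (ratios 0.41, 0.34, 21.5 and 12.2). FOR270-REV250 of that region, only 50.6 kb apart, had 461 and 218 reads in ES against a predicted 533 and 316, and the 95% counting interval of the pooled ES ratio was 0.741 to 0.863. In NPCs it had 10383 and 17163 reads, at ratios of 7.48 and 9.94.

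Sox2 FOR072-REV193, 362 kb apart, had 106 and 78 ES reads and 9925 and 19368 NPC reads (ratios 0.35, 0.90, 21.5 and 11.2). Its 8 surrounding pairs reached at most 85 and 721 reads in NPCs, with highest ratios of 1.97 and 1.57. Sox2 FOR311-REV156, 442 kb apart, had 0 reads in both ES libraries and 12 and 57 in NPCs. Only 1.11 reads were predicted for it in ES in all, so that a count of 0 still allowed an ES ratio of up to 2.71. Its surroundings were also above expected in NPCs, with median ratios of 2.62 and 3.69, and in ES, with 2.02 and 1.55.

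In the Nestin region, FOR264-REV075, 812 kb apart, had 7 and 3 ES reads and 180 and 513 NPC reads (ratios 0.87, 0.85, 14.4 and 9.29). FOR131-REV205, 364 kb apart, had 9 and 5 against 420 and 1201 (0.73, 0.98, 9.41 and 8.79). Their pooled ES ratios had counting intervals that reached 1.59 and 1.35, so ES levels at the expected value are within counting error.

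Nanog FOR039-REV017, 55.8 kb apart, shared its forward fragment with the leading Nanog pair. It had 1022 and 476 reads in ES, below the predicted 1979 and 801, and 8162 and 11463 in NPCs, at ratios of 7.26 and 6.29. In the gene desert, FOR043-REV021 (81.1 kb) had 49 and 20 ES reads and 2436 and 6365 NPC reads, with ratios of 0.72, 0.40, 5.89 and 6.91. Gene desert FOR053-REV036 (66.9 kb) had 159 and 116 against 1910 and 9711 reads, with ratios of 0.51, 0.72, 3.86 and 9.47. The negative control thus held pairs that met the rule. Its highest lower NPC ratio, 5.89, was below the highest of each other region, but it held only 5 members, and few pairs lower a maximum. The median log2 difference of its members between the cell types was 3.57, against 2.27 to 2.75 in the other regions.

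Oct4 held the pair with the highest lower NPC ratio of all, FOR354-REV014, 1426 kb apart. It had 0 reads in both ES libraries and 39 and 54 in NPCs, against 1.32 and 2.21 predicted (ratios 29.6 and 24.4). Only 0.571 reads were predicted for it in ES in all, so the counts of 0 allowed an ES ratio of up to 5.25. Its low ES value was therefore not established at this depth. Oct4 FOR289-REV396, 447 kb apart, had 0 and 0 ES reads and 94 and 173 NPC reads (ratios 12.6 and 67.8). For this pair 3.22 reads were predicted in ES, and the 0 reads allowed a ratio of up to 0.930 by the one-sided limit. A two-sided limit would be higher, so this bound is not comparable with those of pairs that had ES reads. Among the 8 pairs around FOR289-REV396, the highest ratios were 89.6 and 34.8 in ES and 45.0 and 42.9 in NPCs. Their median ratios were 1.23 and 0.88 in ES and 1.65 and 1.38 in NPCs.

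The deepest members shared 1 fragment at the near end of the Oct4 region. Oct4 FOR021-REV025, 15.3 kb apart, had 7874 and 2695 ES reads and 240248 and 530995 NPC reads, with ratios of 0.53, 0.75, 2.28 and 3.36. FOR027-REV025 had 3629 and 2304 against 104043 and 162524 reads (ratios 0.70, 0.52, 2.47 and 2.70). FOR034-REV025 had 3881 and 1363 against 99858 and 221380 (0.84, 0.88, 2.63 and 2.98). Their raw counts differed far more between the cell types than their ratios did, since the predicted reads were also higher in NPCs.

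**Figure D3:**
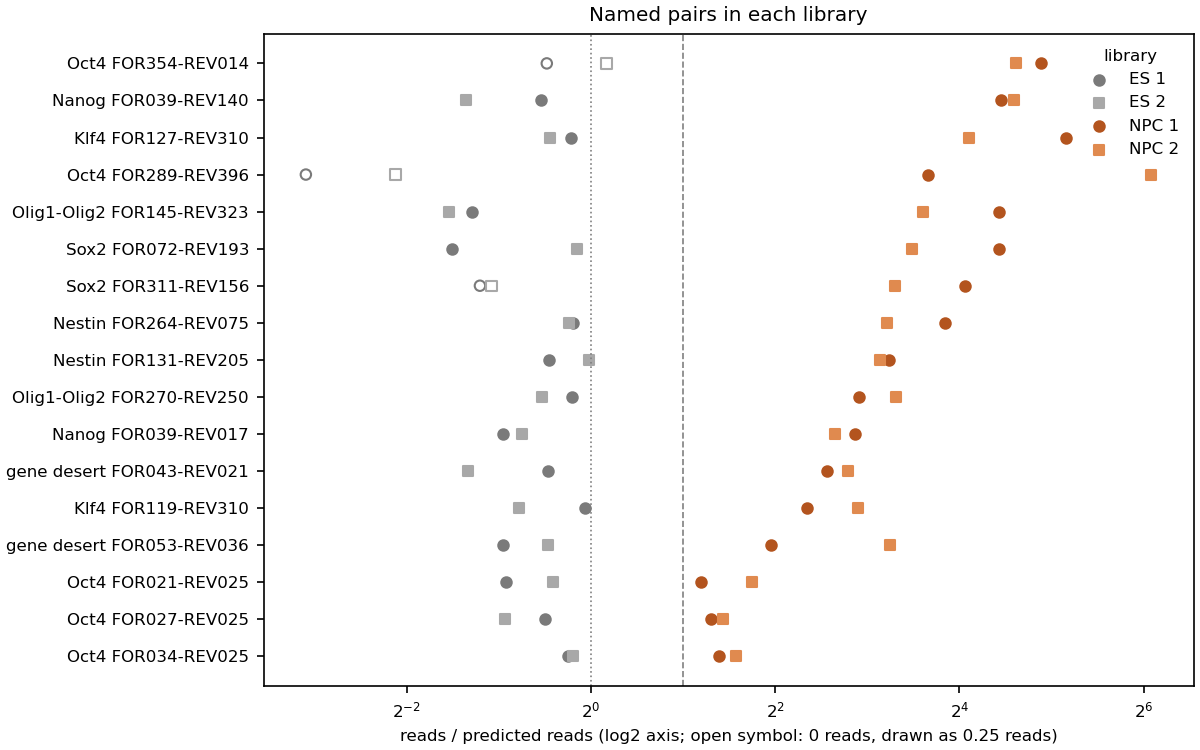
Ratio of reads to predicted reads (x, log2 axis) in the 4 libraries for the 17 named pairs (y); dotted and dashed lines mark ratios of 1 and 2, and open symbols mark 0 reads, drawn as 0.25 reads. In each pair the NPC libraries (orange) lie right of 2 and the ES libraries (grey) left of 1, except an open symbol of Oct4 FOR354-REV014, where 0.222 reads were predicted.

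Members were spread over many fragments, with a few that held several. Of 1464 assayed fragments, 608 took part in at least 1 of the 464 pairs, and 405 of these in only 1. There were 26 fragments with 4 or more. The 146 fragments with most members, 10% of all, held 44.1% of the 928 ends, a share that a short list raises by itself. In 110 pairs neither fragment had another member.

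Oct4 REV025, at 106 kb, had the most, 10 members out of 115 eligible pairs, from 15.3 to 1507 kb away. Besides the 3 deep pairs above, it met FOR060, FOR063 and FOR065 at 173 to 202 kb. FOR063-REV025, singled out after its values were seen, had 1376 and 424 ES reads and 62645 and 133674 NPC reads, with ratios of 0.79, 0.83, 10.2 and 13.8. Over the 137 pairs of REV025 that are no members, the median log2 ratio was 0.13 and 0.03 in ES and −0.00436 and 0.10 in NPCs. The typical ratio of these pairs thus hardly differed. Their summed reads, however, were 0.472 and 0.491 times the summed predicted reads in ES and 1.01 and 1.45 times in NPCs. All pairs of this fragment together had 165037 ES reads and 4502873 NPC reads, a ratio of 27.3, against 3.09 for all reads of the table.

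Oct4 FOR289, at 1238 kb, had 7 members out of only 21 eligible pairs. Its members had NPC ratios of 2.24 to 12.6 in replicate 1 and 10.8 to 531 in replicate 2. The highest came from FOR289-REV025, singled out after its values were seen, with 440 reads against 0.828 predicted in NPC replicate 2 and 89 against 16.6 in replicate 1. Over its 145 pairs that are no members, the median log2 ratio was −0.52 and −0.79 in ES and −1.92 and −2.08 in NPCs, where 51.7% and 59.3% of them had 0 reads. Summed reads of these pairs were nevertheless 1.86 and 28.2 times the summed predicted reads in NPCs, against 1.29 and 1.32 in ES. The typical pair of this fragment was thus lower against predicted reads in NPCs than in ES, while its sum was higher. Its predicted sum in NPC replicate 2 stood far below its reads, which limits what its ratios there show.

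Klf4 REV263, at 733 kb, had 6 members of 42 eligible pairs and few ES reads anywhere. Over its 116 pairs that are no members, summed reads were 0.207 and 0.336 times the predicted sum in ES and 1.17 and 1.40 times in NPCs. In ES 76.7% and 75.9% of these pairs had 0 reads, against 21.6% and 28.4% in NPCs. All its pairs together had 170 ES reads and 9398 NPC reads. Sox2 REV174, at 503 kb, had 998 ES reads and 62526 NPC reads. Over its 122 pairs that are no members, summed reads were 1.17 and 1.14 times the predicted sum in ES and 1.22 and 0.867 times in NPCs. It had 5 members of 87 eligible pairs, with at most 2 ES reads per library in any member. In 3 of these 5, namely those with FOR264, FOR293 and FOR336, ES had 0 reads in both libraries. In all, 1.31 to 6.12 reads were predicted for each of the 5 in ES, so their low ES values rest on few expected reads.

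The next fragments by number of members were all in the Oct4 region, each with 6. REV392 had 57 eligible pairs, FOR063 had 93 and FOR354 had 93. Over all their pairs that are no members, the change from ES to NPCs in median log2 ratio was −0.26, −0.35 and −0.31. Summed reads of these pairs did not fall in the same way. For REV392 they were 1.00 and 1.14 times the predicted sum in ES and 1.60 and 1.82 times in NPCs. For FOR063 they were 0.493 and 0.657 against 0.556 and 0.834, and for FOR354 1.35 and 2.07 against 1.86 and 2.29. In FOR063 and FOR354 the ES and NPC libraries overlapped. Elsewhere the top fragments were Olig1-Olig2 REV263 with 5 members of 106 eligible pairs, Nanog FOR039 with 4 of 58, Nestin FOR264 with 3 of 23 and gene desert REV036 with 2 of 25. Olig1-Olig2 FOR270-REV263, 19.1 kb apart and also picked after its values were seen, had 364 and 256 ES reads against 14796 and 29005 NPC reads, with ratios of 0.42, 0.47, 4.16 and 6.89.

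Typical fragments with a member did not stand out in their other pairs. Over the 608 such fragments, the change from ES to NPCs in the median log2 ratio of all pairs that are no members had a median of −0.12 (10% to 90% range −0.59 to 0.13). Over the 856 fragments without a member it was −0.10 (−0.60 to 0.14). Over eligible pairs that are no members, which passed a read minimum in NPCs, the change exceeded 1 in 18 fragments. Of these, 10 had a member. The 18 fragments took part in 4.74% of the members and in 0.754% of the eligible pairs that are no members.

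Most members had no other member directly beside them. Joining pairs when both fragments were at most 2 assayed fragments apart gave 403 groups, of which 356 were single pairs. Another member was among the 8 pairs around 54 of the 464. Members were 0.535% of all pairs and 1.26% of eligible pairs. How many would have such a neighbour at those rates was not worked out, so 54 is not read as few or many. The largest group held 6 pairs in the Klf4 region, with forward fragments at 725 to 761 kb and reverse fragments at 728 to 739 kb, 2.20 to 33.4 kb apart. Of these 6, 4 shared Klf4 REV263, the fragment with few ES reads described above. Klf4 FOR273-REV260, which did not, had 17 and 48 ES reads and 1784 and 2990 NPC reads, with ratios of 0.47, 0.90, 3.48 and 4.26.

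A second Klf4 group of 4 pairs joined 371 to 387 kb with 389 to 434 kb, and an Olig1-Olig2 group of 4 joined 499 to 548 kb with 617 to 630 kb. In the Olig1-Olig2 group, FOR145-REV188 had 46 and 28 ES reads and 1062 and 3097 NPC reads (ratios 0.32, 0.57, 3.14 and 2.38). FOR162-REV190 had 26 and 18 against 208 and 334 (0.74, 0.83, 3.49 and 2.66). These 4 pairs used 4 forward and 3 reverse fragments, so the group does not rest on 1 fragment. In the Oct4 region the largest groups held 3 pairs, in the Sox2, Nanog and Nestin regions 2, and in the gene desert all 5 members stood alone.

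Pairs beside the members bear on whether a contact extends to its surroundings. The 1762 pairs that are 1 forward and 1 reverse fragment away from a member share no fragment with it, but may share one with another member. Neighbours that met the rule themselves were left out, which takes pairs high in NPCs out of this set. Their median log2 ratio was −0.12 and −0.12 in ES and −0.04 and −0.05 in NPCs, a change of 0.08. The members themselves changed by 2.08 on the same measure. In other pairs of the same region and distance class the medians were −0.06 and −0.06 in ES and −0.20 and −0.25 in NPCs, a change of −0.17.

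Both NPC libraries were above both ES libraries in the diagonal neighbours and below them in the distance-matched pairs. A two-sided exact permutation test over the 4 libraries gave p = 0.333 for the neighbours, the smallest that 2 against 2 allows. The change of the neighbours turned to −0.03 for members chosen at an NPC ratio of 3 and to −0.05 and −0.09 without NPC replicates 1 and 2, with the members chosen anew. It stayed above that of all non-member pairs in each of these settings. Around single members the direction was mixed, with a median change above 0 in 239 of 464.

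By edgeR's quasi-likelihood test on all pairs with a mean of at least 10 reads, 4.90% of 46967 tested pairs were called higher in NPCs (adjusted p under 0.05). Of the diagonal neighbours 975 were tested, and 77, or 7.90%, were called higher in NPCs, with 20 higher in ES. Over other pairs of the same region and distance class 5.03% were called higher in NPCs. The count rested on single libraries, with 3 neighbours called without ES replicate 1 and 307 without NPC replicate 1. Without ES replicate 2 edgeR called 0, with 104 at an unadjusted p under 0.05. When only library totals were used for scaling, it called 37. Over all tested pairs, TMM scaling gave 2300 higher in NPCs and 1093 higher in ES, and scaling by totals gave 1092 and 1194. The median log2 fold change was 0.12 over all tested pairs and 0.42 over the neighbours with TMM, and −0.29 and −0.0022 with totals, so the neighbours lay above all pairs under both scalings. The neighbours' share stayed above that of all tested pairs with totals (3.79% against 2.33%). It also stayed above when NPC replicate 1 or 2 was left out. When ES replicate 1 or 2 was left out, it fell below. Of the members 437 were tested and 188 called, a count from which nothing is read because the rule used the same contrast.

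**Figure D4:**
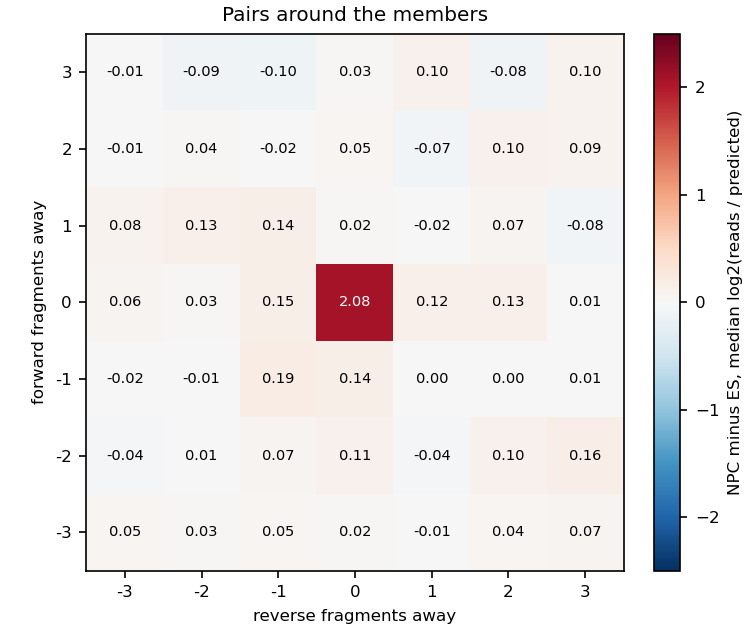
Change from ES to NPCs in the median log2 ratio (colour and numbers) for pairs offset by 0 to 3 assayed fragments from a member, by forward (y) and reverse (x) fragments away. Values outside the centre leave out other members. The centre, which the rule chose, stands at 2.08, and the cells around it lie between −0.10 and 0.19.

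The same measure could be read in a library that the choice did not use. Pairs chosen without NPC replicate 2 numbered 1478, and 464 of them, or 31.4% (95% Wilson interval 29.1 to 33.8), met the NPC condition in that library. The share was 14.2% of all pairs and 45.7% of pairs that met the condition in NPC replicate 1. Without NPC replicate 1, 464 of 2141 pairs, or 21.7% (20.0 to 23.5), met it there, against 11.3% of all pairs and 36.3% of those that met it in replicate 2. Repetition in NPCs was thus above the level of all pairs and below that of pairs high in NPCs whatever their ES level.

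For the ES condition the picture differed. Pairs chosen without ES replicate 1 were under a ratio of 1 there in 464 of 947 cases, or 49.0% (45.8 to 52.2), against 53.2% of all pairs and 68.6% of pairs under 1 in ES replicate 2. Their median ratio in ES replicate 1 was 1.02, against 0.95 for all pairs. Without ES replicate 2 the share was 464 of 831, or 55.8% (52.4 to 59.2), against 53.5% of all pairs and 69.0% of pairs under 1 in ES replicate 1. Over all depths, a pair high in both NPC libraries and low in 1 ES library was thus low in the other ES library about as often as any pair.

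The gap to all pairs narrowed with depth in ES replicate 1 and widened in ES replicate 2 and NPC replicate 2. Among pairs with at least 10 predicted reads in all libraries, the shares were 48.7% for ES replicate 1, against 49.1% of all such pairs, and 56.0% (50.9 to 60.9) for ES replicate 2, against 48.0%. Both stayed below the 75.7% and 73.9% of pairs low in the other ES library. For NPC replicates 1 and 2 they were 24.0% and 46.5%, against 14.5% and 21.3%.

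**Figure D5:**
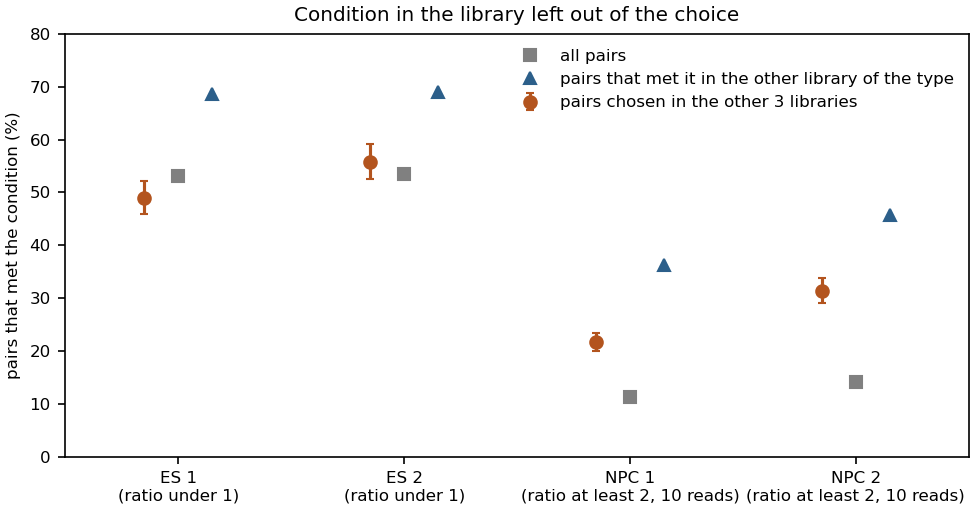
For each library (x), the percentage (y) of pairs that met its condition, among pairs chosen in the other 3 libraries (circles, 95% Wilson interval), among all pairs (squares) and among pairs that met it in the other library of the same type (triangles). The circles lie near the squares in ES (49.0% and 55.8%) and between squares and triangles in NPCs (21.7% and 31.4%).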

How the data were processed

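The authors deposited, for each forward and reverse fragment pair and 5C library, raw read counts, which are whole numbers and not normalized, and a predicted signal on the scale of those reads. The distance in bp is deposited too. No source used here gives the model behind the predicted signal. The submitters' processing notes name Bowtie among the tools for these libraries. A further 16 per-sample columns of the table, among them its p-values and interaction scores, and the NPC peak lists of CTCF and Smc1 were not used.

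Pairs were chosen by the rule given at the opening. Members and lists were chosen with earlier results of these data known. On the log2 scale 0 reads were entered as 0.25. Positions were fitted to the distances, with a largest misfit of 0.556 bp. Distance-matched values weight eligible pairs by region and distance class, with edges at 10 kb and its doublings. Calls came from edgeR 4.0.16 (R 4.3.3; quasi-likelihood test, TMM factors, a design with cell type alone, mean of at least 10 reads, Benjamini-Hochberg over all pairs tested), which was tested on simulated data. DESeq2 1.42.0 was an alternative. With 2 libraries per cell type, spread between libraries may be technical. Pairs named are the 2 per region with the highest lower NPC ratio and the 3 with most reads in the lower NPC library. Fragments named are the 6 with most members and the first of each region, and groups the largest of each region. Equal depth, the values over all pairs of a fragment and the minimum of 10 predicted reads were added after seeing the data.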

Additional observations from a re-analysis of the deposited data

How the results depend on the processing

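The number of pairs depended on the rule. It was 1092 and 143 with NPC ratios of 1.5 and 3, and 66 with an ES ratio under 0.5. At equal depth it was 285, with at least 10 predicted reads 211, and with 1 library left out 831 to 2141. It stayed within 1.5 times with other read minimums, with ratios divided by the library median (625 pairs) and with an expected value refitted from distance and fragment medians (655 pairs). The refitted list shared 256 pairs, 39.1% of it and 55.2% of the deposited-model list. The median distance was 259 and 461 kb at NPC ratios of 1.5 and 3, and 315 kb at 30 reads. It was 536 kb at an ES ratio under 0.5, 296 kb with scaled ratios and 478 kb with the refitted expected value. At equal depth it was 312 kb, with at least 10 predicted reads 237 kb and with 1 library left out 332 to 428 kb. The share of ends on the top 10% of fragments rises as a list shortens. It was 32.9% and 71.3% at NPC ratios of 1.5 and 3, and 39.5% and 56.7% at 5 and 30 reads. At an ES ratio under 0.5 it was 100%, with scaled ratios 38.7% and at equal depth 57.4%. It was 63.5% with at least 10 predicted reads and 26.0% to 36.3% with 1 library left out.

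The change of the diagonal neighbours reversed to −0.0279 at an NPC ratio of 3 and to −0.119 at an ES ratio under 0.5, and ran from −0.0926 to 0.0359 with 1 library left out. It exceeded that of all non-members by 0.02 to 0.30 over all settings. Neighbours called higher in NPCs numbered 37 with library totals, 170 with no count filter, 140 with DESeq2 (5464 pairs without an adjusted p) and 0 to 307 with 1 library left out, where a lone library was assumed to vary like the other cell type. Same-numbered libraries deviated apart (r = −0.107 over pairs). With the replicate block edgeR called 88 neighbours, and with the numbers crossed 106. The cause of these differences was not tested. All 17 named pairs kept their direction in the 6 settings run for them, which leaving out a library could not change, at 51.2% to 129% of their log2 difference with the refitted expected value.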
